A study of Mus musculus with 6 samples.

Results

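Genes of the glutathione, peroxiredoxin, thioredoxin and superoxide dismutase systems were followed in fat from Prmt5 knockout and wild-type mice. They were chosen by symbol: every glutathione transferase, glutathione peroxidase, peroxiredoxin, thioredoxin-named, glutaredoxin and superoxide dismutase gene of the deposited table, plus Nqo1, Hmox1, Gclc, Gclm, Gss, Gsr, Nfe2l2 and Srxn1. The choice gave 62 of 14291 genes. The knockout group (KO below) holds 3 libraries of the genotype written Prmt5AKO, and the wild-type group (WT) holds 3 libraries from mice of the genotype Prmt5flox/flox. All 6 libraries are polyA-selected RNA from tissue labelled as the epididymal white fat depot. The sources used here name no Cre driver, deleted cell type, age or sex.

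Glutathione is a tripeptide whose cysteine carries reducing power. Glutathione peroxidases and peroxiredoxins pass it, or that of thioredoxin, on to hydrogen peroxide and lipid peroxides, and glutathione transferases join glutathione to reactive compounds such as the aldehydes that oxidised fat releases. Superoxide dismutases make the hydrogen peroxide these enzymes remove. The transcription factor NRF2, encoded by Nfe2l2, is held low by KEAP1 and, once released, binds antioxidant response elements with small MAF proteins and induces many genes of these families.

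The element's core, TGACNNNGC on either strand (GCNNNGTCA when read on the other), was sought in RefSeq promoter windows from 250 bases before to 50 after each start (build GRCm38.p6). Windows existed for 53 of the 62 genes, and 12 of the 53 (22.6%) held the core, against 17% of the 10792 genes of the table with a window. A match is a description of letters and does not show that NRF2 binds there. The stretches below, chosen from the 12 with the values known, show the core in capitals for 6 genes at different levels of the system: the regulator itself, glutathione synthesis, both kinds of transferase, a peroxiredoxin and a thioredoxin reductase.
Nfe2l2 (chr2:75704860-75704913, minus strand): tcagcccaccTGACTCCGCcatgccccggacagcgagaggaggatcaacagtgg
Gclm (chr3:122245388-122245466, plus strand): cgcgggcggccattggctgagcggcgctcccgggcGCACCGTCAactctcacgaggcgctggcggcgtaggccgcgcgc
Gsta3 (chr1:21240429-21240507, plus strand): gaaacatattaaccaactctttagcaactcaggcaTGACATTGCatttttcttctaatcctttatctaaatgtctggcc
Mgst1 (chr6:138140436-138140514, plus strand): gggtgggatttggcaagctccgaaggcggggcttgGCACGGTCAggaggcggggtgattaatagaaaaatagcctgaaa
Prdx1 (chr4:116685431-116685509, plus strand): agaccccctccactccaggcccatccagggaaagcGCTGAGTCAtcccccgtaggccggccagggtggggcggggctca
Txnrd1 (chr10:82859079-82859157, plus strand): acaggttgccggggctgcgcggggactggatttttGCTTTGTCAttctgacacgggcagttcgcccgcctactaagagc
Of the 12 genes with the core, Nfe2l2 and Gsta3 stood lower in every KO library than in any WT library and Txndc11 stood higher in every one. The genotypes overlapped for the other 9, and over all genes 14.5% did not overlap.

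Levels are given in CPM, counts scaled to library size with edgeR's TMM factors, or in RPKM, the same divided by exonic length in kilobases, where genes are compared with each other. Fold changes are log2 of KO over WT with a standard error (SE). Each adjusted p is a Benjamini-Hochberg value over all 14291 genes from edgeR's quasi-likelihood test, and a gene was called when it was under 0.05. The genotype-only fit is the main test. The batch-term fit beside it adds a term that parts replicate 1 of both genotypes from replicates 2 and 3, the grouping that returned the authors' deposited p-values. Where length and GC offsets are named, a smooth trend of each library over exonic length and GC content was taken out. The labels do not say whether each library is a separate animal. The p-values therefore rest on how far libraries of a genotype differ, and that difference may be technical.

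The libraries held 17489530 to 24454163 counts in KO and 20746401 to 26403882 in WT. Prmt5 lies on chromosome 14 from 54507182 to 54517470 (mm10, as all gene positions here). The KO replicates 1 to 3 held 14.8, 22.4 and 28.5 CPM of it, below the 37.5, 59.9 and 40.8 CPM of WT replicates 1 to 3. Its log2 fold change was -1.08 (adjusted p = 0.467, edgeR) and -1.10 with the batch term (adjusted p = 0.0913, edgeR), neither of them called. Prmt5 was called with the batch term and length and GC offsets (-1.22, adjusted p = 0.0164, edgeR), by DESeq2 with the batch term (adjusted p = 0.00287), and with the batch term without WT replicate 3 (adjusted p = 0.0236, edgeR). Libraries also stood apart across genotypes: KO replicate 1 and WT replicates 1 and 3 lay together on one side of the first principal component, which held 61.8% of the variance. Xist, made from the inactive X chromosome of female cells, stood at 1044, 45.6 and 47.2 CPM in KO and 958.1, 106.1 and 509.7 CPM in WT. The high values in KO replicate 1 and WT replicates 1 and 3 go against an epididymal origin, and the fat is called by its label here. Those are the same libraries that lay together on the first principal component. This split is uneven between the genotypes, so it cannot be fully told apart from genotype. The batch term does not follow it, since it groups WT replicate 3 with the libraries of the other side. The Y-linked genes looked up (Ddx3y, Uty, Kdm5d and Eif2s3y) had no value analysed here, so the sex of each library cannot be told from them. The 8 adipocyte markers summed to 23544 to 34606 CPM in KO and 27338 to 36353 CPM in WT.

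Among the 62 genes the extracellular superoxide dismutase gene Sod3 differed most clearly, higher in every KO library, with the mitochondrial dismutase gene Sod2 and the transferase genes Gstt3 and Gstt1 also higher on average. The NRF2 gene Nfe2l2, the glutathione synthesis gene Gclc and the transferase gene Gsta3 stood lower in every KO library. None of the 62 was called: 0 in the genotype-only fit, where 0% of all genes were called, and 0 in the batch-term fit, where 0.504% were. That background of the batch-term fit was 0.385% higher and 0.119% lower. At an adjusted p under 0.1 the genotype-only fit held 0 members, where 0.021% of all genes passed, and the batch-term fit held 1, Sod3, where 2.63% did. At an unadjusted p under 0.05 the genotype-only fit held 3 higher and 2 lower members (8.06%), against 8.63% of all genes, 5.26% higher and 3.37% lower. The batch-term fit held 11 higher and 4 lower (24.2%), against 24.5% of all genes, 12.1% higher and 12.4% lower. For 8 of the 62 genes (12.9%) the genotypes did not overlap, 4 higher and 4 lower in KO, against 14.5% of all genes, 8.32% higher and 6.2% lower. These 3 shares of members were near those of the whole table. DESeq2 called 1 member on genotype only (background 1.9%) and 12 with the batch term (background 11%), and limma-voom called 0 in both (0% and 0.49%). With length and GC offsets 0 members were called on genotype only (background 0.084%) and 2 with the batch term (background 2.63%). The median log2 fold change of the 62 was 0.09, with 37 above 0, against a median of -0.02 over all genes. That median turned to -0.07 without WT replicate 1 and to -0.02 without KO replicate 3, and was 0.35 without KO replicate 1 and 0.31 without WT replicate 2. The number above 0 ran from 25 without WT replicate 1 to 48 without WT replicate 2.

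**Figure D1:**
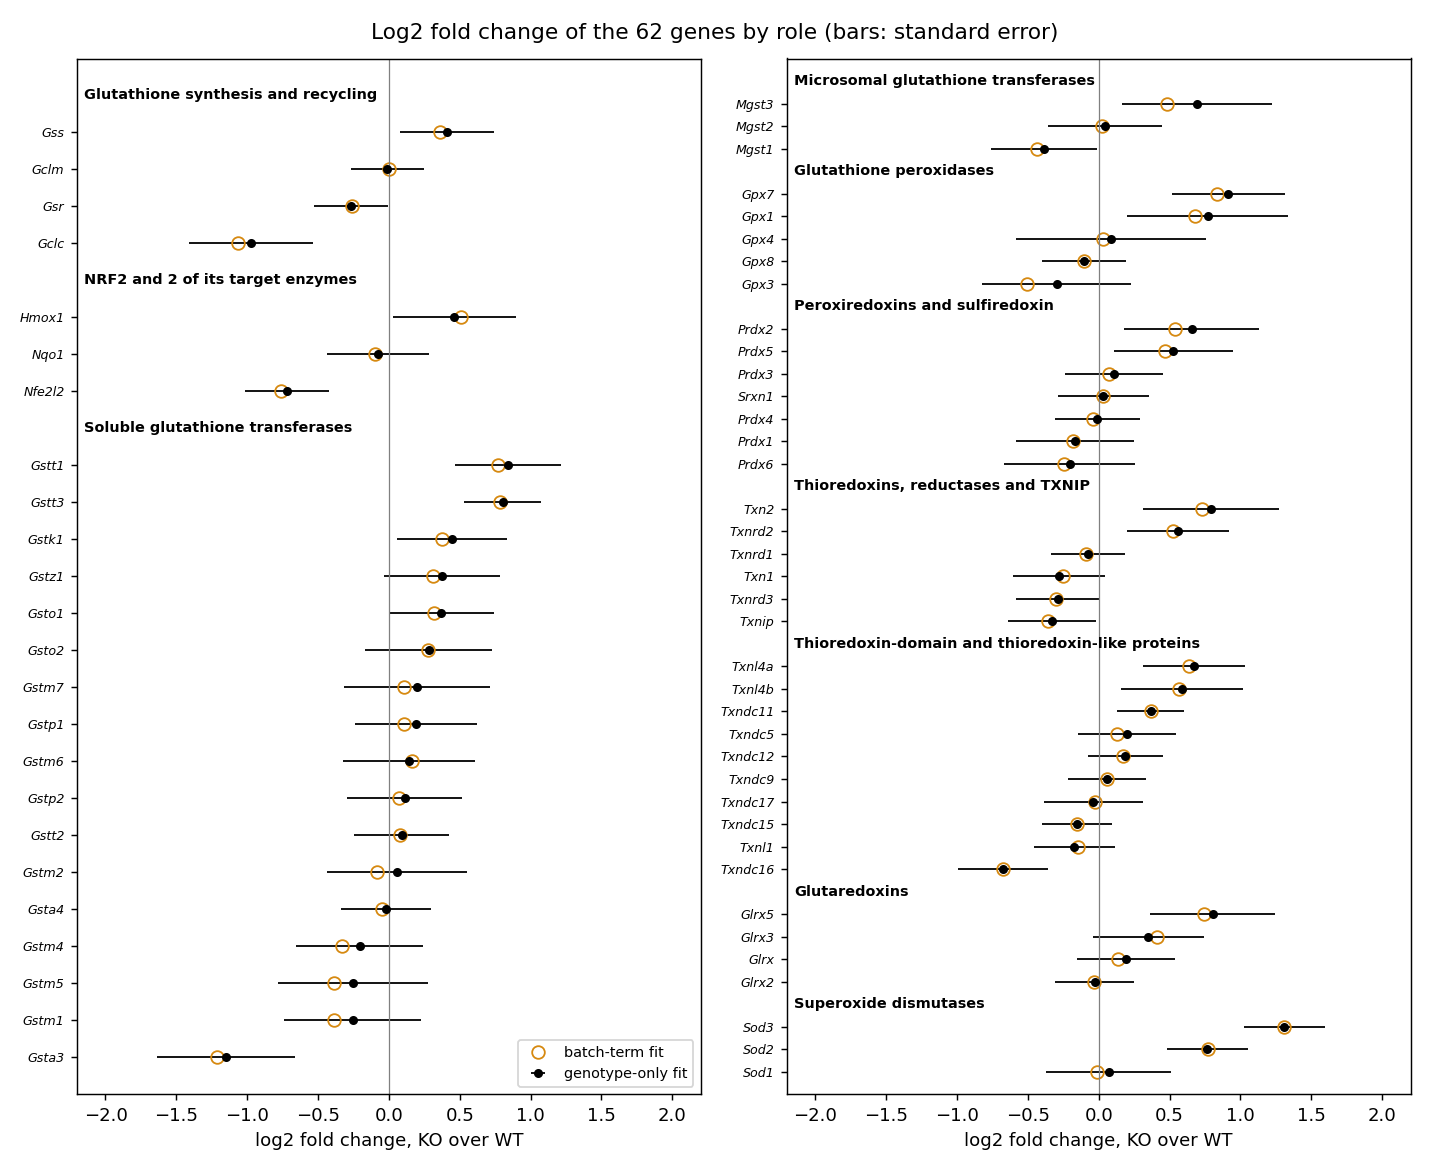
Log2 fold change (KO over WT, x axis) of each of the 62 genes by role group. Filled points with bars are the genotype-only fit and its standard error, open circles the batch-term fit. Sod3 at 1.31 is the highest and Gsta3 at -1.15 the lowest, and most other bars reach or come close to 0.

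The superoxide dismutases convert superoxide to hydrogen peroxide in 3 places: SOD1 in the cytosol, SOD2 in the mitochondrial matrix and SOD3 outside the cell, bound to matrix. Sod3 (chromosome 5, 52363804 to 52369738) stood at 741.8, 997 and 836.7 CPM in KO and 374.7, 375.2 and 289.1 CPM in WT. The lowest KO library was nearly as far above the highest WT library as that library was above 0. The means were 858.5 ± 129 CPM in KO and 346.3 ± 49.6 CPM in WT (SD, n = 3 each), a 2.48-fold difference. The log2 fold change was 1.31 in both fits, with SE 0.29 and adjusted p = 0.349 on genotype only and SE 0.22 and adjusted p = 0.0587 with the batch term (edgeR). It was 0.98 within replicate 1 and 1.44 in replicates 2 and 3. Sod3 passed the threshold in the batch-term fit without WT replicate 3 (adjusted p = 0.0408, edgeR) and with length and GC offsets (adjusted p = 0.0236, edgeR), and with DESeq2 on genotype only (adjusted p = 0.000768). Of the 2 marker lists that did not overlap between genotypes, fibroblast and progenitor genes summed to 1109 to 1396 CPM in KO and 1869 to 3135 CPM in WT, with 6 of 6 genes below 0. Brown and beige fat genes summed to 378.7 to 792.6 CPM in KO and 105.8 to 307.7 CPM in WT. On genotype only 6 of 6 genes were above 0, and with the batch term 5 of 6, Ppargc1a being at -0.10. This list was mixed: 3 genes (Cidea, Cox7a1 and Cox8b) had all KO values above the WT ones, whereas Ucp1, Dio2 and Ppargc1a overlapped. Pdgfra, Dcn, Ucp1 and Cidea were detected in all 6 libraries, and the part of either cell type in any result here was not tested. In bulk tissue fewer cells of a type and less RNA per cell cannot be told apart.

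Sod2 (chromosome 17, 13007839 to 13018119) stood at 254.4, 368.1 and 313.2 CPM in KO and 144.5, 211.8 and 193.9 CPM in WT. Every KO library lay above every WT library, and the replicate 1 library was the lowest of each genotype. Its log2 fold change was 0.77 in both fits, with adjusted p = 0.533 (SE 0.29) on genotype only and 0.104 (SE 0.19) with the batch term (edgeR). Length and GC offsets moved it to 1.41 without the batch term (adjusted p = 0.297, edgeR) and to 1.31 with it (adjusted p = 0.0399, edgeR). Sod1, the most abundant dismutase transcript at 1307 RPKM in KO and 1243 RPKM in WT, stood at 418.4, 1067 and 1055 CPM in KO and 565.1, 1055 and 796.3 CPM in WT. Its genotypes overlapped almost wholly, with a log2 fold change of 0.07 (SE 0.44) that turned to -0.01 in the batch-term fit and to -0.13 with length and GC offsets.

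**Figure D2:**
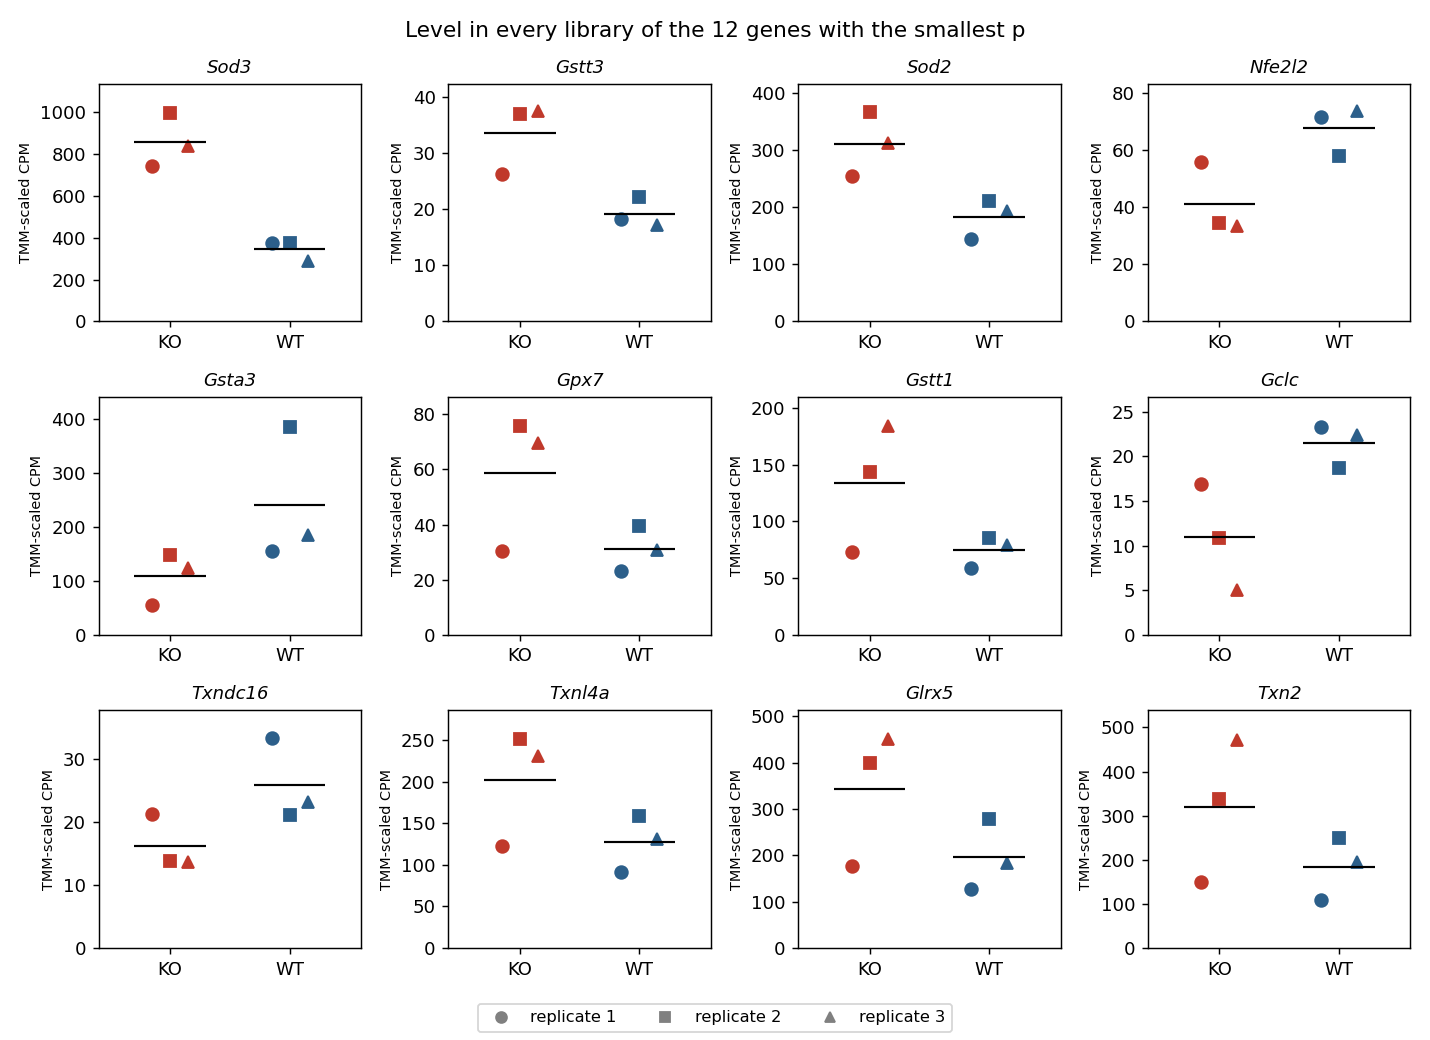
TMM-scaled CPM (y axis, from 0) in every library for the 12 genes with the smallest p, KO in red and WT in blue. Symbols give the replicate number and lines the means. Sod3, Gstt3 and Sod2 have every KO point above the WT points, Nfe2l2, Gsta3 and Gclc every KO point below them, and the other 6 genes overlap.

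NRF2's own gene stood lower in each KO library, while 2 of its classical targets, Nqo1 and Hmox1, overlapped between genotypes. They do not stand for all targets: of the further target genes given below, some were higher and some lower in every KO library. Nfe2l2 (chromosome 2, 75675519 to 75704641) stood at 56.1, 34.4 and 33.3 CPM in KO and 71.7, 58 and 73.8 CPM in WT. The KO replicate 1 library came within 2 CPM of the lowest WT library. The means were 41.3 ± 12.8 CPM in KO and 67.8 ± 8.6 CPM in WT (SD, n = 3 each), a log2 fold change of -0.72 (SE 0.30, adjusted p = 0.569, edgeR). The batch term gave -0.76 (SE 0.22, adjusted p = 0.13, edgeR). Replicate 1 alone gave -0.35 and replicates 2 and 3 gave -0.99. Nqo1, a quinone reductase much used as a readout of NRF2, was scarce at 4.3, 7.29 and 6.23 CPM in KO and 5.1, 7.36 and 6.36 CPM in WT. The 2 sets of values nearly coincide (log2 fold change -0.08, SE 0.36). Hmox1, haem oxygenase, stood at 52.5, 71.9 and 85.7 CPM in KO and 30.5, 86.1 and 35.9 CPM in WT. WT replicate 2 was the highest of all 6 libraries, and the log2 fold change of 0.46 (SE 0.43) became 1.08 without it, 0.20 without WT replicate 1 and 0.27 with length and GC offsets. The 8 macrophage markers, cells rich in haem oxygenase, had 7 of 8 genes above 0 and overlapped between genotypes at 1782 to 2832 CPM in KO and 1170 to 2197 CPM in WT, with WT replicate 2 the highest of the WT libraries, and their part in Hmox1 was not tested.

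Glutathione is built by glutamate-cysteine ligase, of which GCLC is the catalytic and GCLM the regulatory subunit, and by the synthetase GSS, and GSR returns its oxidised form to the reduced one. The 2 ligase subunits parted. Gclc (chromosome 9, 77754535 to 77794489) stood at 17, 10.8 and 5 CPM in KO and 23.3, 18.7 and 22.4 CPM in WT. Every KO library was below every WT library, but KO replicates 1 and 3 differed from each other by more than KO replicate 1 did from any WT library. The log2 fold change was -0.97 (SE 0.44, adjusted p = 0.572, edgeR), -1.07 with the batch term (SE 0.35, adjusted p = 0.154, edgeR), and -0.63 without KO replicate 3. Gclm stood at 33.8, 36.3 and 29.4 CPM in KO and 27, 37.3 and 35.9 CPM in WT. Its genotype means were nearly equal (log2 fold change -0.01, SE 0.26), although length and GC offsets gave 0.42. Per length, Gclm stood at 16 RPKM in KO and 16.1 RPKM in WT, while Gclc stood at 3.19 RPKM in KO and 6.27 RPKM in WT. Gss stood at 24.1, 46.4 and 44.6 CPM in KO and 25.4, 35.6 and 25.6 CPM in WT (log2 fold change 0.41, SE 0.33; from 0.25 without KO replicate 2 to 0.65 without KO replicate 1). Gsr stood at 41.8, 55.3 and 42.1 CPM in KO and 45.9, 65.3 and 56.3 CPM in WT (-0.27, SE 0.26; from -0.41 without KO replicate 2 to -0.14 without WT replicate 2). Neither gene separated the genotypes.

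The 17 soluble glutathione transferases held both higher and lower genes, of which 12 lay above 0, the median being 0.14 on the log2 scale. With length and GC offsets 6 of 17 were above 0 and the median was -0.10. Without KO replicate 3 it was -0.08 and without WT replicate 1 it was -0.05, while it was 0.48 without WT replicate 2 and 0.42 without KO replicate 1, with 16 of 17 above 0 each time. Gsta3, an alpha-class gene, stood at 54.5, 148.3 and 124.4 CPM in KO and 154.6, 384.9 and 185.7 CPM in WT. Every WT library was above every KO library, narrowly for WT replicate 1, and WT replicate 2 stood far above the other WT libraries. The log2 fold change was -1.15 (SE 0.49, adjusted p = 0.572, edgeR), -0.64 without WT replicate 2 and -0.68 with length and GC offsets. With the batch term it was -1.21 (SE 0.30, adjusted p = 0.107, edgeR), and it was called there without WT replicate 3 (-1.52, adjusted p = 0.0086, edgeR).

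The theta-class genes Gstt3, Gstt1 and Gstt2 lie close together on the minus strand of chromosome 10, from 75774122 to 75834881. Gstt3 stood at 26.2, 37 and 37.6 CPM in KO and 18.3, 22.3 and 17.2 CPM in WT (log2 fold change 0.80, SE 0.27, adjusted p = 0.492, edgeR). Gstt1 stood at 72.8, 143.3 and 184.5 CPM in KO and 58.6, 85.4 and 79.4 CPM in WT (0.84, SE 0.38, adjusted p = 0.572, edgeR). The genotypes were apart for Gstt3, while KO replicate 1 lay within the WT range for Gstt1. Gstt1 was at 0.54 without KO replicate 3 and at 0.41 with length and GC offsets, and their neighbour Gstt2 had 0.09 (SE 0.33). The 6 mu-class genes form a cluster on chromosome 3 (107895854 to 108044859) and are similar in sequence, so that reads may be split between them. Their log2 fold changes ran from -0.26 to 0.19, and the 2 pi-class genes Gstp1 and Gstp2, near-identical neighbours on chromosome 19, had 0.19 and 0.11. Gstz1, which acts in tyrosine breakdown, had the highest level per length of the soluble enzymes, 432.9 RPKM in KO and 333.9 RPKM in WT. It stood at 502.5, 1125 and 1110 CPM in KO and 515.2, 905.8 and 690.9 CPM in WT, with overlapping genotypes (0.37, SE 0.41; from 0.19 without WT replicate 1 to 0.66 without KO replicate 1). Its exons share 22.6% of their length with those of Pomt2 on the other strand, and the sources used here do not say whether counting used strand. Pomt2 averaged 28.6 ± 4.38 CPM in KO and 19.3 ± 0.94 CPM in WT (SD, n = 3 each), with every KO library higher. Of the other soluble transferase genes, Gstk1 (0.44), Gsto1 (0.37), Gsto2 (0.28) and Gsta4 (-0.02) all overlapped between genotypes.

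Microsomal transferases sit in membranes, and MGST1 also reduces lipid peroxides. Mgst1 stood at 475.4, 1022 and 817.3 CPM in KO and 801.9, 1230 and 997.4 CPM in WT. Both KO replicates 2 and 3 lay within the WT range (log2 fold change -0.39, SE 0.37), and the value was -0.64 without KO replicate 2 and -0.14 without KO replicate 1. Mgst2 (0.04) and Mgst3 (0.69, SE 0.53) had no separation either.

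Of the 62 genes, 3 glutathione peroxidases were among the most abundant per length, with means over all libraries of 1678 RPKM for Gpx1, 1234 RPKM for Gpx4 and 1014 RPKM for Gpx3. Gpx1, the cytosolic and mitochondrial selenoenzyme, stood at 878, 2730 and 3033 CPM in KO and 691.9, 1955 and 1253 CPM in WT. Replicate 1 was the lowest library of each genotype by a wide margin, and the genotypes overlapped (log2 fold change 0.77, SE 0.57, adjusted p = 0.62, edgeR; 0.31 with length and GC offsets). It ran from 0.46 without WT replicate 1 to 1.19 without WT replicate 2. Gpx4, which reduces lipid peroxides in membranes and restrains ferroptosis, stood at 675.5, 2110 and 3059 CPM in KO and 753.8, 3198 and 1558 CPM in WT. The spread within each genotype was far larger than the difference between them (0.08, SE 0.67), and the sign turned with length and GC offsets (-0.35). Gpx3, the secreted plasma form made in quantity by fat, stood at 486, 1530 and 2125 CPM in KO and 1371, 2000 and 1717 CPM in WT. In the genotype-only fit the log2 fold change of -0.30 (SE 0.52) became 0.10 without KO replicate 1, while length and GC offsets gave -0.74. It was -0.505 with the batch term (SE 0.34) and -0.05 in replicates 2 and 3 alone. Gpx7, a peroxidase of the endoplasmic reticulum, stood at 30.5, 75.8 and 69.5 CPM in KO and 23, 39.5 and 30.9 CPM in WT. KO replicates 2 and 3 were above all WT libraries and KO replicate 1 was among them (0.91, SE 0.40, adjusted p = 0.572, edgeR; 0.52 with length and GC offsets). Gpx8, a further peroxidase of that compartment, had -0.10 (SE 0.30).

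Most peroxiredoxins take electrons from thioredoxin to remove peroxide, and sulfiredoxin, encoded by Srxn1, revives some of them after overoxidation. The 7 genes overlapped between genotypes, 4 of them above 0, and their median was 0.03 on the log2 scale. Prdx1, cytosolic, stood at 287.1, 603.4 and 581.2 CPM in KO and 340.3, 737 and 574.3 CPM in WT (-0.17, SE 0.42, and 0.15 with length and GC offsets). Prdx5, found in mitochondria and peroxisomes and the most abundant of them per length, stood at 288.4, 695.5 and 651.7 CPM in KO and 257.9, 499.7 and 377.2 CPM in WT. KO replicates 2 and 3 lay above the WT libraries and KO replicate 1 near the lowest (0.53, SE 0.42; from 0.31 without KO replicate 2 to 0.82 without KO replicate 1), and length and GC offsets left 0.04. Srxn1 stood at 29.4, 51.1 and 43.1 CPM in KO and 28.7, 48.7 and 43.4 CPM in WT, nearly the same in each replicate number (0.03, SE 0.32, and -0.13 with length and GC offsets). The remaining 4 ran from -0.20 (Prdx6) to 0.66 (Prdx2).

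In the thioredoxin system a reductase charges thioredoxin with electrons from NADPH, and TXNIP binds and inhibits thioredoxin. The mitochondrial pair stood higher on average and the cytosolic pair did not. Txn2, mitochondrial thioredoxin, stood at 149.7, 337.3 and 471.8 CPM in KO and 109.4, 248.4 and 195.9 CPM in WT. KO replicate 1 fell among the WT libraries (log2 fold change 0.79, SE 0.48, adjusted p = 0.605, edgeR), and the value was 0.40 without KO replicate 3 and 0.46 with length and GC offsets. Its reductase gene Txnrd2 had 0.56 (SE 0.36). Cytosolic Txn1 had -0.28 (SE 0.32), and Txnrd3, a further reductase gene, had -0.29 (SE 0.30). Its reductase gene Txnrd1, an NRF2 target with the core shown above, stood at 68, 57 and 42.7 CPM in KO and 61.1, 59.5 and 55.8 CPM in WT. The WT libraries were close together and lay within the KO range (-0.07, SE 0.26, and 0.06 with length and GC offsets). Txnip stood at 912.8, 1300 and 1430 CPM in KO and 1513, 1594 and 1481 CPM in WT. Every KO library was below every WT library, KO replicate 3 by a narrow margin (-0.33, SE 0.31, adjusted p = 0.662, edgeR; -0.16 with length and GC offsets and -0.17 without KO replicate 1). Gm15441 covers 21.6% of Txnip's exonic length on the other strand and averaged 1.62 ± 0.55 CPM in KO and 0.79 ± 0.57 CPM in WT (SD, n = 3 each).

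Proteins named for a thioredoxin fold are not all redox enzymes: TXNDC5, TXNDC11, TXNDC12, TXNDC15 and TXNDC16 belong to the secretory pathway, and TXNL4A and TXNL4B are spliceosome proteins. Of these 10 genes 6 were above 0. Txnl4a stood at 122.9, 252 and 231.1 CPM in KO and 91.8, 158.3 and 130.8 CPM in WT (log2 fold change 0.67, SE 0.36, adjusted p = 0.593, edgeR). KO replicate 1 was below WT replicates 2 and 3. Txndc16 stood at 21.3, 13.8 and 13.6 CPM in KO and 33.3, 21.1 and 23.2 CPM in WT, with KO replicate 1 just above the lowest WT library (-0.67, SE 0.32, adjusted p = 0.581, edgeR; -0.22 with length and GC offsets). Txndc11 was higher in every KO library by a small amount (0.37, SE 0.24). Txndc17, a cytosolic thioredoxin-like protein and the most abundant of the group per length, stood at 83.2, 156.3 and 95.7 CPM in KO and 78.9, 134.4 and 130.8 CPM in WT, with no separation (-0.04, SE 0.35, and 0.16 with length and GC offsets). The other 6 genes overlapped between genotypes and ran from -0.17 (Txnl1) to 0.59 (Txnl4b).

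Glutaredoxins reverse the joining of glutathione to proteins, and GLRX5 serves iron-sulphur cluster assembly in mitochondria. Glrx5, by far the most abundant of the 4 per length, stood at 177.2, 399.6 and 450.1 CPM in KO and 127.9, 278.3 and 182.4 CPM in WT. KO replicates 2 and 3 exceeded the WT libraries and KO replicate 1 was lower than WT replicates 2 and 3 (log2 fold change 0.80, SE 0.44, adjusted p = 0.593, edgeR; 0.45 with length and GC offsets). Glrx3 (0.35), Glrx (0.19) and Glrx2 (-0.03) overlapped.

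Ordered by compartment, a grouping made after the values were seen, the 8 genes for mitochondrial enzymes had 7 above 0 and a median of 0.54 on the log2 scale, and 8 cytosolic counterparts had 4 above 0 and a median of -0.0007. With length and GC offsets the medians were 0.36 and 0.10, with 8 and 5 above 0. The mitochondrial median stayed above 0 with each library left out, from 0.35 to 0.81, and the cytosolic one ran from -0.11 to 0.25. These refits reuse the libraries on which the grouping was made, so they do not test it. None of the 16 genes was called in either fit, and Sod2 was the only mitochondrial one without overlap, so these medians are a description of the libraries. DESeq2 with the batch term called Sod2, Txn2 and Glrx5, where it called 11% of all genes. Length and GC offsets with the batch term called Sod2, where 2.63% of all genes were called. Replicate 1 was the lowest library of both genotypes for 8 of 8 mitochondrial genes and 6 of 8 cytosolic ones. The share was 74.2% of the 62 and 26.5% of all genes. The brown and beige markers summed to 792.6, 650.6 and 378.7 CPM in KO replicates 1 to 3, and their part in these medians was not tested.

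**Figure D3:**
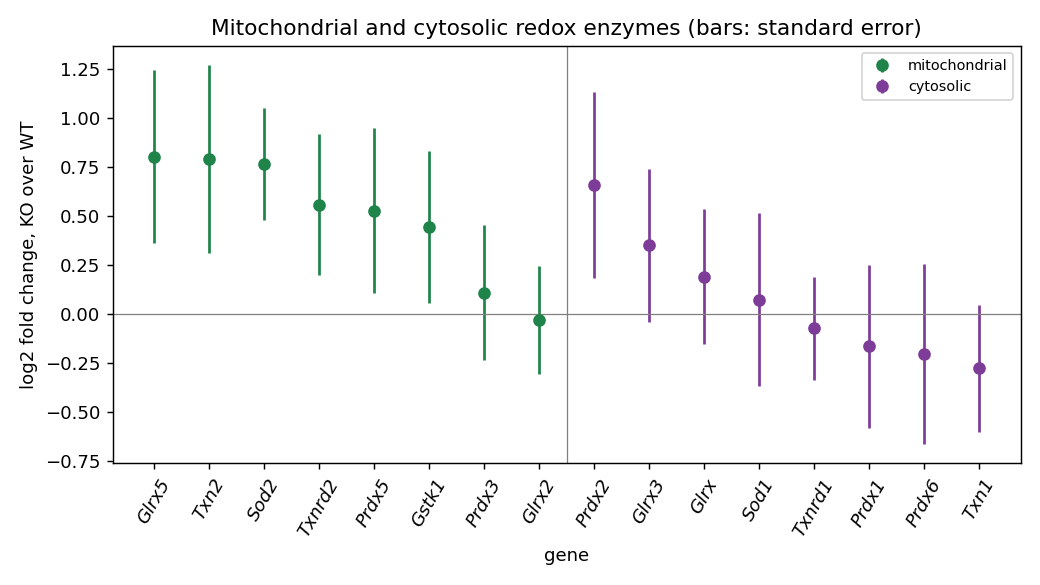
Log2 fold change (KO over WT, y axis) with standard error for 8 genes of mitochondrial enzymes (green) and 8 of cytosolic ones (purple). Glrx5, Txn2 and Sod2 lead the mitochondrial genes near 0.8, and the cytosolic genes spread from 0.66 (Prdx2) to -0.28 (Txn1).

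Across libraries the summed level was lowest in replicate 1 of each genotype, while replicates 2 and 3 were ordered differently in KO and WT. The summed level of the 62 was 8986, 19707 and 21627 CPM in KO replicates 1 to 3 and 10800, 19891 and 14514 CPM in WT replicates 1 to 3. Replicate 1 was the lowest library of both genotypes for 46 of the 62 genes (74.2%), against 26.5% of all genes. The 62 are also short, with a median exonic length of 1482 bases against 2883 over all genes, and among the 2411 genes no longer than that median the share was 62.8%. Spearman's correlation of length with the log2 ratio of replicate 1 to replicates 2 and 3 was 0.54 over the 62 genes and 0.58 over all genes. Both are values across genes that share the same 6 libraries. With length and GC offsets the share was 43.5% for the 62 and 27.1% for all genes.

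**Figure D4:**
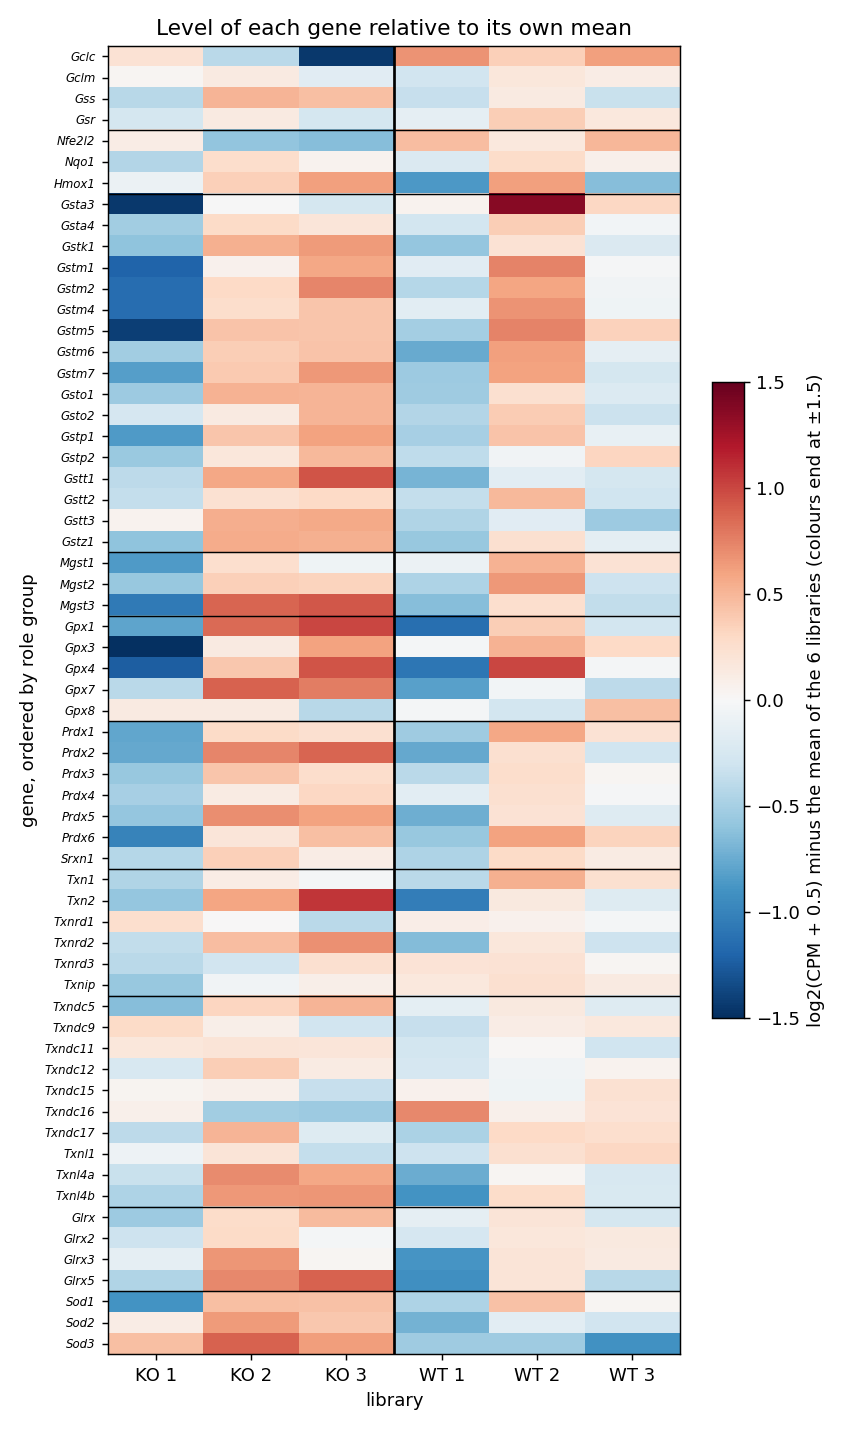
Each gene's log2(CPM + 0.5) in each library minus its own mean over the 6 libraries, KO columns left and WT columns right, genes by role group. The KO replicate 1 and WT replicate 1 columns are blue for most genes, and for 46 of 62 both are the lowest of their genotype.

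Other genes that feed or regulate these systems gave no calls in either fit. The 14 measured genes of glutathione precursor supply, turnover and export had 8 above 0 and 0 called in each direction, led by the breakdown enzyme gene Ggct (-0.84, adjusted p = 0.572, edgeR). Of 14 genes that supply NADPH, 10 were above 0 and 0 were called. The malic enzyme gene Me1 averaged 406.1 ± 48.7 CPM in KO and 943.9 ± 285.2 CPM in WT (-1.22, SE 0.33, adjusted p = 0.393, edgeR). Idh2, which makes NADPH in mitochondria, averaged 182.5 ± 36.1 CPM in KO and 104.9 ± 1.35 CPM in WT (0.80, SE 0.26), and the transhydrogenase gene Nnt averaged 35.7 ± 9.4 CPM in KO and 62 ± 7.96 CPM in WT (-0.80, SE 0.28). The genotypes did not overlap for 4 of the 14 NADPH genes (28.6%, against 14.5% of all genes): these 3 and Mthfd1, a folate enzyme gene higher in each KO library (0.50, SE 0.24), which was chosen for this after its values were seen.

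The 11 regulators of the NRF2 pathway had 4 above 0 and 0 called. Nfe2l3, a relative of NRF2, averaged 0.46 ± 0.31 CPM in KO and 1.82 ± 0.47 CPM in WT (-1.97, SE 0.70). It was near the floor, with KO replicate 3 at 0.0989 CPM. Keap1 averaged 99.6 ± 24.3 CPM in KO and 75.4 ± 9.1 CPM in WT (0.40, SE 0.28), and its genotypes overlapped. Those of Bach1 overlapped as well (-1.10, SE 0.68). Among 13 further NRF2 target genes 7 were above 0 and 0 were called. The genotypes did not overlap for 5 of the 13 (38.5%, against 14.5% of all genes). Of these, 2 were higher in KO (Ephx1 and Akr1b8) and 3 lower (Ugdh, Abcc4 and Cat). Cat averaged 619.1 ± 135.2 CPM in KO and 1010.8 ± 165.4 CPM in WT (-0.71, SE 0.31). The shares without overlap in the precursor, regulator and redox repair lists were 7.14%, 18.2% and 11.1%. The genes furthest from 0 by p lay on both sides: the epoxide hydrolase gene Ephx1 averaged 175 ± 31.6 CPM in KO and 83.1 ± 18.6 CPM in WT (1.07, SE 0.29, adjusted p = 0.393, edgeR), while Ugdh, which makes UDP-glucuronate, averaged 42.4 ± 11.8 CPM in KO and 78.3 ± 8.48 CPM in WT (-0.88, SE 0.28, adjusted p = 0.47, edgeR). Akr1b8, an aldo-keto reductase gene, averaged 48.6 ± 11.3 CPM in KO and 27.1 ± 4.05 CPM in WT (0.84, SE 0.28). Of 18 redox repair and detoxification genes 11 were above 0 and 0 were called. Sepp1, for the secreted selenium carrier selenoprotein P, averaged 755.5 ± 171.3 CPM in KO and 1513 ± 126.8 CPM in WT (SE of the log2 fold change 0.31, adjusted p = 0.456, edgeR). In these lists SDs are over 3 libraries of a genotype.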

How the data were processed

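PolyA RNA was sequenced from 3 KO and 3 WT libraries, grouped and numbered by sample title. TopHat2, HTSeq 0.6.1 and the build mm10 are listed, without roles, in the submitters' processing notes. The authors deposited raw counts per gene, log2 RPKM, exonic length, a log2 fold change and p-values, per the file headers. Tests used only the counts (R 4.3.3, edgeR 4.0.16: TMM factors, filterByExpr, which removed 0 genes, then glmQLFit and glmQLFTest). The deposited p-values were matched by a fit with replicate 1 against replicates 2 and 3 as a batch term (median absolute log10 ratio 8.3e-14, other fits 0.115 to 0.269). The sources used here do not say what that grouping was. Each SE is the size of the log2 fold change divided by the square root of F. The code of the fit was run on simulated data. These had less spread within a genotype than the genotype-only fit found here, so the run does not rate that fit on these libraries. GC content came from GENCODE M21 transcripts (13786 genes), offsets from loess with span 0.5.

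Alternatives were RLE factors, no filter, a filter of 10 counts, DESeq2 1.42.0, limma-voom 3.58.1, the replicate block, the batch term, replicates 2 and 3 alone, offsets, a threshold of 0.1 and each library left out. Genes with values per library were fixed by name (17), by the 12 smallest p, by a batch-term call and by the highest level per length of each role group, and up to 3 smallest p from each pathway list. The members, lists and tests were chosen with earlier results of these data known. Of the list genes, Selenow, Selenop, Selenot and Selenom were matched by older symbols. Total counts per library limit low genes: the fewest counts of any member in a library were 51.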

Additional observations from a re-analysis of the deposited data

How the results depend on the processing

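Counts, medians and the folds of Prmt5 and the 29 members given by library were recomputed under each alternative; folds of the other genes, marker sums and promoter counts were not. With the main count of 0 called members, DESeq2 on genotype only called 1 higher (Sod3), where it called 1.9% of all genes, and length and GC offsets with the batch term called 2 higher (Sod3 and Sod2). Starting from the batch-term fit, with 0 called, DESeq2 called 8 higher and 4 lower, where it called 11% of all genes. Those higher were Sod3, Sod2, Gpx7, Gstt3, Gstt1, Txnl4a, Glrx5 and Txn2, and those lower were Gsta3, Nfe2l2, Txndc16 and Gclc. Offsets gave 2 higher, a threshold of 0.1 gave 1 higher (Sod3), and leaving out a library gave 0 to 1 higher and 0 to 1 lower, the calls being Sod3 and Gsta3 without WT replicate 3. Members without overlap numbered 8 to 28 with a library left out, the most without KO replicate 1, where 58.6% of all genes did not overlap, and 32 in replicates 2 and 3 alone, where 65.5% of all genes did not overlap. The median log2 fold change ran from -0.0732 (without WT replicate 1) to 0.35 (without KO replicate 1). Deviations of same-numbered libraries from their group means had correlations of 0.638, 0.533 and -0.102, and KO replicate 3 with WT replicate 2 had 0.44. These values cannot decide whether the numbers pair the samples, since libraries of unlike number also deviated together. The replicate block called 0 members higher and 0 lower.

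Among those 29 members, 9 turned sign and 21 turned or moved over 1.5 times with some library left out. With length and GC offsets, without and with the batch term, they were 0.42 and 0.41 (Gclm), -0.35 and -0.34 (Gpx4), 0.15 and 0.0733 (Prdx1), -0.13 and -0.17 (Sod1), -0.13 and -0.11 (Srxn1), 0.16 and 0.14 (Txndc17), and 0.0579 and 0.0604 (Txnrd1). The batch term gave 0.00319 for Gclm and -0.0124 for Sod1. Sod1 had -0.00190 with limma-voom and -0.00354 with the replicate block, and 0.17 in replicates 2 and 3 alone. Against the batch-term fit Gclm had -0.00231 with the strict filter, -0.00729 with limma-voom and -0.18 in replicates 2 and 3. With a library left out, the genotype-only ranges were -0.14 to 0.0765 (Gclm), -0.75 to 0.10 (Gpx3), -0.40 to 0.75 (Gpx4), -0.25 to 0.10 (Nqo1), -0.42 to 0.10 (Prdx1), -0.13 to 0.39 (Sod1), -0.16 to 0.22 (Srxn1), -0.36 to 0.13 (Txndc17) and -0.24 to 0.0876 (Txnrd1). With the batch term they were -0.18 to 0.13 (Gclm), -0.26 to 0.34 (Gpx4), -0.20 to 0.20 (Sod1), -0.0403 to 0.10 (Srxn1), -0.23 to 0.17 (Txndc17) and -0.23 to 0.0568 (Txnrd1). The cause was not tested.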

Other observations

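Markers of the other cell types of the tissue were compared over the same libraries. The 5 endothelial genes summed to 491.5 to 627 CPM in KO and 475.2 to 755.1 CPM in WT. Lymphocyte genes summed to 19.4 to 60.1 CPM in KO and 16.5 to 34.1 CPM in WT, and neutrophil genes to 10.4 to 30.2 CPM in KO and 9.85 to 62.3 CPM in WT. Skeletal muscle genes ranged from 379 to 1689 CPM in KO and from 198.7 to 2158 CPM in WT, and the 3 measured epithelial genes from 4.15 to 34.8 CPM in KO and from 12.3 to 26.3 CPM in WT. Alas2, the only red blood cell gene measured, stood at 19.7 to 102.3 CPM in KO and 38 to 166.2 CPM in WT. The 5 mesothelial genes summed to 74 to 356.8 CPM in KO and 228.5 to 328.6 CPM in WT, a sum carried by Upk3b, and all 5 lay below 0 with a median of -0.70 on the log2 scale. Of these 5, Gpm6a was lower in every KO library. Of the 7 epididymis and testis genes looked up, 0 had a value analysed here.

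Enzymes that produce superoxide or peroxide gave 0 calls among 7 genes, with 5 above 0. Nox4, an NADPH oxidase, averaged 0.93 ± 0.77 CPM in KO and 3.42 ± 1.9 CPM in WT (log2 fold change -1.88, SE 0.79, adjusted p = 0.572, edgeR). Its values overlapped between genotypes, and the SDs are over 3 libraries each.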
